A study of Mus musculus with 12 samples.

Results

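Id2 and Id3, the genes of a pair of related Id proteins, were followed across 3 kinds of sorted mouse thymocytes, and they are the 2 members described here out of 11815 genes in the table. They were chosen by name, because the mutant mice lack one or both of them, and every library was used. Levels are FPKM (fragments per kilobase of transcript, scaled to the mapped fragments of the library), so that genes of different length can be compared. There were 11 libraries in 6 groups, with WT iNKT measured in 1 library, and WT DP, WT γδ, Id3KO γδ, L-DKO iNKT and L-DKO DP each in 2 libraries. DP cells are CD4 and CD8 double-positive thymocytes, iNKT cells recognise lipids on CD1d through a receptor that hardly varies, and γδ cells carry the γδ T cell receptor. WT mice were B6 (C57BL/6). L-DKO mice were Id2 f/f Id3 f/f LckCre+, so that Cre driven by the Lck promoter deletes both genes in cells of the T lineage. Id3KO mice were Id3-/- in every cell, with Id2 intact. The mutant strains were on C57BL/6 or a hybrid of C57BL/6 with 129. Cells of 2 to 3 mice were pooled for a library, at an age of 4 to 5 weeks. The labels give different gates for the DP genotypes, TCRγδ- CD4+ CD8+ for WT and CD1dTet- CD4+ CD8+ for L-DKO. The methods of the paper give TCRγδ- CD4+ CD8+ for both in RNA sequencing, and which holds could not be settled. If the gates differed, gate and genotype cannot be told apart there. The iNKT gate was CD1dTet+ TCRβ+ and the γδ gate TCRγδ+ CD3+. The letters a and b tell the libraries of a group apart and follow the order of the columns only.

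Id proteins have a helix-loop-helix domain but no basic region. They pair with E proteins, the transcription factors encoded by Tcf3 (E2A), Tcf12 (HEB) and Tcf4 (E2-2), and the pairs cannot bind the E-box sequence CANNTG. In the thymus Id3 is induced by T cell receptor signals at selection, while Id2 is best known from NK cells, innate lymphoid cells and effector T cells, whose differentiation needs it. Of the 4 Id genes of the mouse, Id1 and Id4 were not among the genes with values, so they could not be analysed here.

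Id2 lies on the minus strand at chr12:25093799-25096092 and Id3 on the plus strand at chr4:136143822-136145392 (RefSeq annotation of GRCm38.p6), and no other annotated gene overlaps either. The 250 bases upstream of each start site are shown because the proteins of these genes act on the factors that read E-boxes, and because the genes differed in level between lineages. They cover chr12:25096093-25096342 (minus strand) and chr4:136143572-136143821 (plus strand), from RefSeq promoters on GRCm38.p6, written 5′ to 3′ with each E-box in capitals.
Id2: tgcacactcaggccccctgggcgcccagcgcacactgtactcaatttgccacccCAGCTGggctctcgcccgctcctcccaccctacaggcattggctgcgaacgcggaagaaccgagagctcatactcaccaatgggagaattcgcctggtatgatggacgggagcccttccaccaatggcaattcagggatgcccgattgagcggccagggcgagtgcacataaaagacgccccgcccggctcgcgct
Id3: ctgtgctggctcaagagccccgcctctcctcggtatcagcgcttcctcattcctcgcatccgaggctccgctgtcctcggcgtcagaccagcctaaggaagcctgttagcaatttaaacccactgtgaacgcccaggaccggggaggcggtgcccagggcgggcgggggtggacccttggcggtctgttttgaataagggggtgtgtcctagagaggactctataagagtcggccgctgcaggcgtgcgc
Both stretches had a GC content of 62.8%. On either strand CANNTG matched at 1 place upstream of Id2, as CAGCTG starting 196 bases before the start site, and at 0 places upstream of Id3. Of 27025 mouse promoters of the same length, 66.0% held a CANNTG and 12.8% a CAGCTG, so such a match is common. CCAAT matched at 3 places upstream of Id2 and 0 upstream of Id3, against 34.5% of promoters with at least 1 match and 3.0% with at least 3. TATAA matched at 1 place upstream of Id3, starting 29 bases before the start, and 0 upstream of Id2, with 23.5% of promoters holding it. The letters GCGNGGGCG, read by Egr factors, were in neither stretch and in 4.7% of promoters. Enhancers farther away, where lineage control often lies, are not covered by these windows.

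Sequencing depth is unknown, and total FPKM ranged from 498489 to 1020310 between libraries. Sorted identity was checked with marker lists. The 8 DP markers summed to 3571 to 3867 FPKM in the DP libraries and 126 to 501 elsewhere. The iNKT list (5 of 8 genes measured) summed to 1596 in WT iNKT, 502 and 602 in L-DKO iNKT, 101 to 302 in γδ libraries and 11.9 to 22.1 in DP libraries. The γδ list (6 of 8 measured) summed to 1379 to 2070 in the γδ libraries, but also to 736 in WT iNKT, against 13.3 and 44.7 in L-DKO iNKT. Of the NK and ILC list, whose cells are known for high Id2, only Gata3 of 10 genes was measured, so its defining genes cannot be read. Fewer cells of a type and less RNA per cell cannot be told apart in such bulk libraries, and many more cells were sorted from mutants than from WT mice according to the methods, so cell input and genotype cannot be told apart either.

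Among WT cells, Id2 was lowest in DP cells, higher in γδ cells and highest in iNKT cells. Its level was 2.25 and 2.64 FPKM in the WT DP libraries, 20.4 and 34.6 in WT γδ, and 553.5 in the single WT iNKT library. The 3 lineages did not overlap. In WT iNKT, 99.0% of measured genes were listed below Id2. The mean was 2.44 ± 0.275 FPKM (SD, n = 2) in WT DP and 27.5 ± 10.05 (SD, n = 2) in WT γδ, an 11.3-fold difference of means, and WT iNKT was a further 20.1-fold above WT γδ. On the log2(FPKM + 1) scale of the limma test, Id2 was higher in WT iNKT than in WT DP by 7.33 ± 0.52 (SE; adjusted p = 0.000225), in a comparison that called 25% of all genes. From WT DP to WT γδ the difference was 3.01 ± 0.43 (limma adjusted p = 0.00299), where 20.6% of genes were called. WT iNKT exceeded WT γδ by 4.33 ± 0.52 (limma adjusted p = 0.00857), with 2.78% of genes called. That call was lost without WT γδ library a (3.96, limma adjusted p = 0.0574). The 3 lineage comparisons share libraries, and those with WT iNKT rest on 1 library whose spread is borrowed from the rest.

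**Figure D1:**
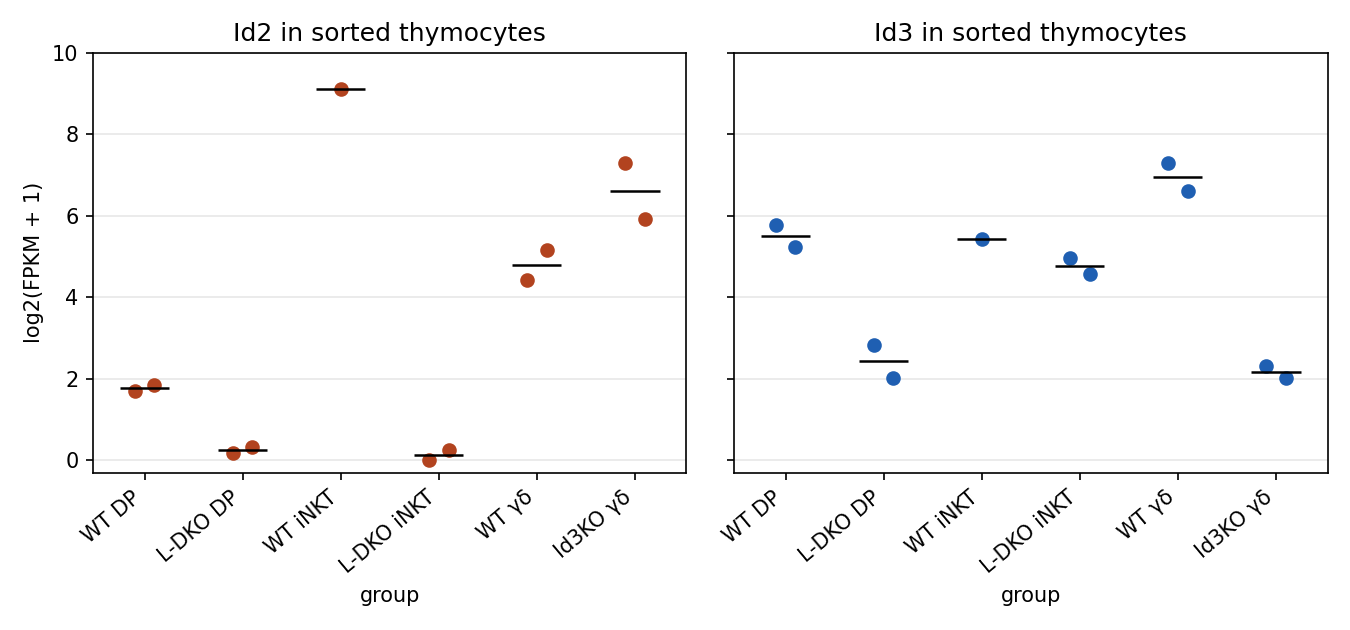
Level of Id2 (left) and Id3 (right) on the log2(FPKM + 1) scale in each library of the 6 groups. Points are libraries and lines are group means. Id2 stood at 553.5 FPKM in WT iNKT and at or under 0.267 FPKM in every L-DKO library, while Id3 in the libraries labelled L-DKO iNKT (30.55 and 22.8 FPKM) stood well above that in L-DKO DP.

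Id3 had another order. It was 53.8 and 36.9 FPKM in WT DP, 42.4 in WT iNKT, and 156.7 and 96.7 in WT γδ. WT iNKT fell between the WT DP libraries, while both WT γδ libraries were above every other library. The means were 45.4 ± 11.98 FPKM (SD, n = 2) in WT DP and 126.7 ± 42.4 (SD, n = 2) in WT γδ. The rise of Id3 from WT DP to WT γδ was 1.45 ± 0.35 on the log2 scale (limma adjusted p = 0.0253). It lost its call without WT γδ library a (1.10, limma adjusted p = 0.148), without WT DP library b (1.18, limma adjusted p = 0.14), and when libraries were scaled to the same total (0.86, limma adjusted p = 0.132). WT iNKT differed from WT DP by -0.07, with a 95% interval of -1.07 to 0.93 (limma adjusted p = 0.926). Its difference from WT γδ was -1.52 (95% interval -2.52 to -0.51), which missed the threshold over all genes (limma adjusted p = 0.118).

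The balance between these genes thus differed among WT lineages. Id2 made up 4.01% and 6.67% of the summed FPKM of Id2 and Id3 in WT DP, 11.5% and 26.4% in WT γδ, and 92.9% in WT iNKT. The sum itself was 39.5 to 56.1 FPKM in WT DP, 131.3 to 177.1 in WT γδ and 595.9 in WT iNKT. Beside it, the summed FPKM of Tcf3, Tcf4 and Tcf12 was 313.6 and 380.0 in WT DP, 221.9 and 229.7 in WT γδ, and 118.3 in WT iNKT. The Id sum was therefore 0.104 to 0.179 of the E protein sum in WT DP, 0.572 to 0.798 in WT γδ and 5.04 in WT iNKT. These are ratios of transcripts and not of proteins.

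**Figure D2:**
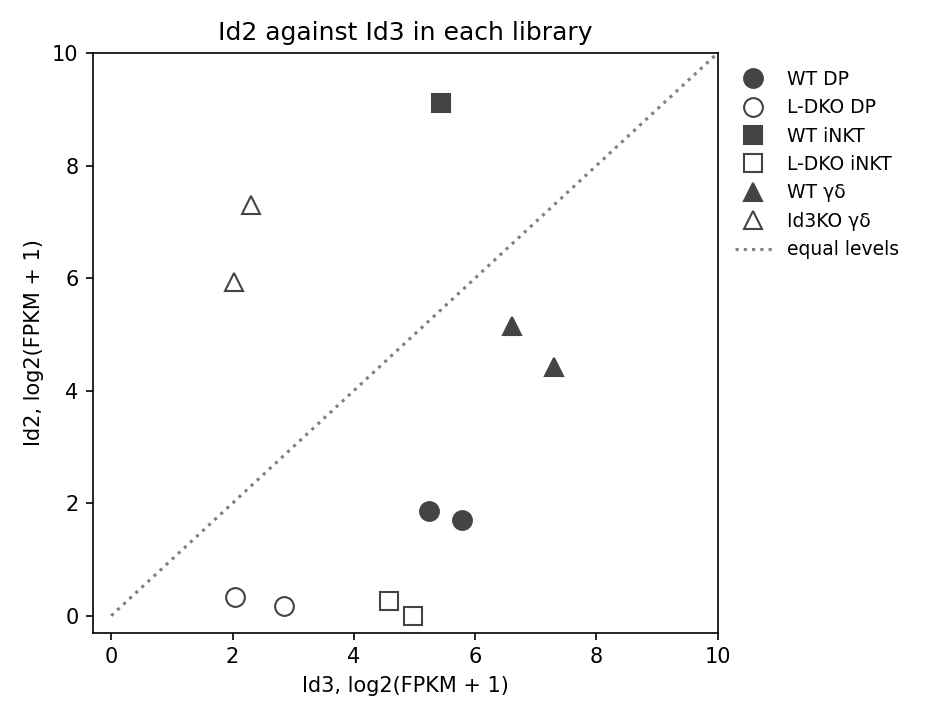
Id2 against Id3 in each of the 11 libraries, both as log2(FPKM + 1), with filled symbols for WT and open symbols for mutant libraries. The dotted line marks equal levels. Only WT iNKT and the Id3KO γδ libraries lie above it, with Id2 at 92.9% and at 95.1% to 97.5% of the summed FPKM.

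The next comparison asks whether the deleted genes were lost. In L-DKO DP, Id2 was 0.127 and 0.267 FPKM, both below the WT DP libraries. The fitted fall of 1.52 on the log2 scale (95% interval -2.51 to -0.54) did not pass the threshold (limma adjusted p = 0.261), in a comparison that called 0.178% of genes. Id2 was low already in WT DP, where only 11.3% and 12.9% of genes were listed below it. Of the libraries labelled L-DKO iNKT, library a listed Id2 at 0 and library b at 0.199 FPKM, against 553.5 in WT iNKT. No fold is given against a library listed at 0. The fitted log2 change was -8.98 ± 0.52 (limma adjusted p = 0.000465), a size that depends on the pseudocount of 1, and 6.07% of genes were called. With the iNKT libraries fitted alone the call was lost (limma adjusted p = 0.0629). L-DKO DP and L-DKO iNKT differed in Id2 by -0.13 (95% interval -1.11 to 0.86, limma adjusted p = 0.869), in a comparison that called 24.3% of genes.

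Id3 was lost unevenly between the populations of the same L-DKO genotype. It was 6.17 and 3.10 FPKM in L-DKO DP, a mean of 4.63 ± 2.17 (SD, n = 2) that is 10.2% of the WT DP mean. The fall was -3.07 ± 0.35 on the log2 scale (limma adjusted p = 0.0222). This call was lost when any single DP library, WT γδ library a or WT γδ library b was left out (limma adjusted p up to 0.134), and when only the DP libraries were fitted (limma adjusted p = 0.103). In the libraries labelled L-DKO iNKT, Id3 was 30.55 and 22.8 FPKM, a mean of 26.7 ± 5.46 (SD, n = 2). Both were under the 42.4 of WT iNKT, but the mean was still 63.0% of it. The difference of -0.66 ± 0.43 (95% interval -1.67 to 0.34) did not pass the limma test (adjusted p = 0.496), and it turned to 0.29 when libraries were scaled to the same total. Between the mutant populations, L-DKO iNKT held more Id3 than L-DKO DP by 2.34 ± 0.35 (limma adjusted p = 0.00289), without overlap. The genotype effects on Id3 in iNKT and DP cells differed by 2.41 ± 0.56, which missed the threshold (limma adjusted p = 0.0829), with 1.73% of genes called. For Id3, the values of the libraries labelled L-DKO iNKT thus went against a full loss of the transcript, while for Id2 they did not. The removed exons of Id3 are not given in the sources used, and transcripts from remaining exons would still be counted. Whether they contribute was not tested.

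In γδ cells, which were Id3KO and kept Id2, both genes changed and in opposite directions. Id3 was 156.7 and 96.7 FPKM in WT γδ and 3.95 and 3.07 in Id3KO γδ, the latter averaging 2.77% of the WT mean. The fall was -4.79 ± 0.35 on the log2 scale (limma adjusted p = 0.000491), in a comparison that called 15.1% of genes. It held in all alternatives, with adjusted p of at most 0.00663. Id2 was 20.4 and 34.6 FPKM in WT γδ, and 156.6 and 60.0 in Id3KO γδ. The groups did not overlap, although the Id3KO libraries were themselves far apart. The ratio of means was 3.94, and the log2 difference was 1.83 ± 0.43 (95% interval 0.84 to 2.81, limma adjusted p = 0.0275). The call depended on single libraries and on settings. Its limma adjusted p was 0.0623 without Id3KO γδ library a (a difference of 1.14), 0.154 without WT γδ library a (1.46), and 0.0501 without either L-DKO DP library. It was 0.101 with a pseudocount of 0.1, and 0.106 when only the γδ libraries were fitted.

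Marker sums of the γδ libraries also differed between the genotypes. The DP markers (8 of 8 measured, none at 0) summed to 386 and 501 FPKM in WT γδ and 126 and 166 in Id3KO γδ. Of these 8 genes, 4 were called lower and 0 higher, against 15.1% of all genes called, the 4 being Arpp21, Rag1, Rag2 and Ptcra. Cd8a, at 32.4 and 47.8 FPKM in WT γδ and 32.0 and 132.8 in Id3KO γδ, overlapped between the groups and made up most of the sum in Id3KO γδ library b. The myeloid and dendritic markers (7 of 10 measured, none at 0) summed to 218 and 250 in WT γδ and 21.5 and 44.9 in Id3KO γδ. B cell markers (3 of 8 measured) summed to 215 and 419 in WT γδ and 126 and 497 in Id3KO γδ, so that they overlapped. Of the 6 measured γδ markers, 1 was called lower and 0 higher. Sox13 went from 284.3 and 202.1 FPKM in WT γδ to 23.7 and 4.66 in Id3KO γδ, and Tcrg-V1 from 168.2 and 225.5 to 389.1 and 482.3. The paper describes an expansion of innate-like γδ cells in Id3-/- mice. Fewer cells of a type and less RNA per cell cannot be told apart here. The part of other cells, or of a change among the γδ cells, in the rise of Id2 was not tested.

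The 3 genotype comparisons share no libraries, and tests of the differences between them were run in the same fit. The Id2 effect in γδ cells (Id3 deleted) was higher than that in DP cells (both deleted) by 3.35 ± 0.60 (limma adjusted p = 0.0325), with 2.52% of genes called. This was lost without any single DP library or either WT γδ library (limma adjusted p up to 0.137). The iNKT and DP effects on Id2 differed by -7.46 ± 0.67 (limma adjusted p = 0.00834), a call lost without L-DKO DP library b (-7.38, limma adjusted p = 0.0517). The iNKT and γδ effects differed by -10.81 ± 0.67 for Id2 (limma adjusted p = 0.00106) and by 4.13 ± 0.56 for Id3 (limma adjusted p = 0.00834), in a comparison with 6.6% of genes called. For Id3, the γδ and DP effects differed by -1.72 ± 0.50, which did not pass (limma adjusted p = 0.128). In the comparisons with γδ cells, the Id2 differences set a deletion beside a gene left intact. Between iNKT and DP cells, both with Id2 deleted and near 0, the difference of -7.46 mirrors the WT difference of 7.33.

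**Figure D3:**
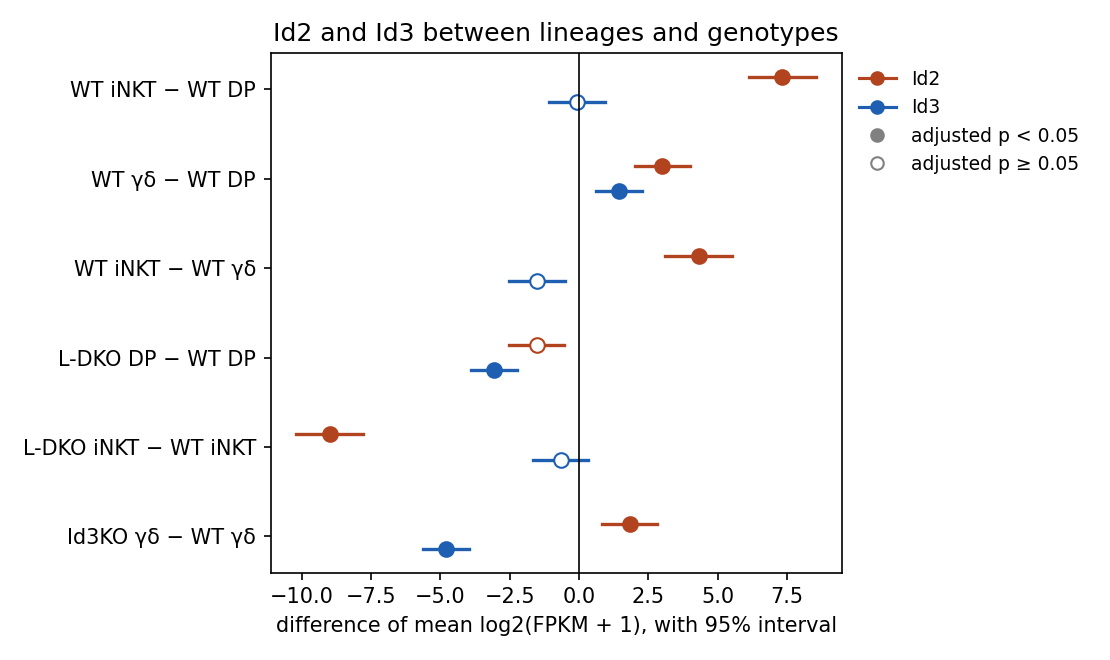
Differences of mean log2(FPKM + 1) for Id2 and Id3 in 3 comparisons between WT lineages and 3 between genotypes, with 95% intervals from the limma fit. Filled points passed an adjusted p of 0.05 over all genes. In γδ cells Id3 fell by 4.79 and Id2 rose by 1.83, while in iNKT cells Id2 fell by 8.98 and Id3 by 0.66, the last without passing the test.

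Across all 6 groups the order of Id2 was WT iNKT, Id3KO γδ, WT γδ, WT DP, L-DKO DP and L-DKO iNKT. Id3KO γδ was below WT iNKT in both libraries, yet the difference of 2.50 (95% interval 1.29 to 3.71) missed the threshold in a comparison calling 1.03% of genes (limma adjusted p = 0.0761). It passed without Id3KO γδ library a (3.18, limma adjusted p = 0.00975). Id3KO γδ was above L-DKO DP by 6.36 (limma adjusted p = 6.31e-05), where 35.4% of genes were called, while L-DKO iNKT differed from Id3KO γδ by -6.48 (limma adjusted p = 0.00044), where 3.98% were called. The order of Id3 was WT γδ, WT DP, WT iNKT, L-DKO iNKT, L-DKO DP and Id3KO γδ. In that order the only neighbours past the threshold were WT γδ with WT DP and L-DKO iNKT with L-DKO DP. L-DKO iNKT exceeded Id3KO γδ in Id3 by 2.61 ± 0.35 (limma adjusted p = 0.00839). The Id3KO γδ and L-DKO DP libraries overlapped, with a difference of -0.27 (95% interval -1.09 to 0.55, limma adjusted p = 0.591).

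The summed transcript of both genes was compared between genotypes as well. In Id3KO γδ the sum of Id2 and Id3 was 160.6 and 63.1 FPKM, against 177.1 and 131.3 in WT γδ, so the groups overlapped, and Id2 made up 97.5% and 95.1% of it. In L-DKO DP the sum was 6.29 and 3.36 FPKM, below both WT DP libraries. In L-DKO iNKT it was 30.55 and 23.02 FPKM, nearly all of it Id3, against 595.9 in WT iNKT. Relative to the E protein sum, the Id sum was 1.46 and 0.547 in Id3KO γδ, 0.0132 and 0.0261 in L-DKO DP, and 0.212 and 0.243 in L-DKO iNKT. The L-DKO iNKT ratio was thus above both WT DP libraries and below both WT γδ libraries. Id3 transcripts from any exons left by the deletion would count in that ratio, and whether they do was not tested.

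The partners of the Id proteins moved as well. In Id3KO γδ all 3 E protein genes fell, in a comparison with 15.1% of all genes called. Tcf4 went from 13.4 and 18.0 FPKM in WT γδ to 2.23 and 3.19 in Id3KO γδ, a log2 change of -2.17 ± 0.31 (limma adjusted p = 0.00554) that held in all alternatives. Tcf3 fell by 0.90 (limma adjusted p = 0.0478) and Tcf12 by 0.91 (limma adjusted p = 0.0244). With libraries scaled to the same total both calls were lost (limma adjusted p = 0.193 for Tcf3 and 0.0969 for Tcf12). The Tcf3 call was lost without any single DP, L-DKO iNKT or Id3KO γδ library or WT γδ library a (limma adjusted p up to 0.201), and the Tcf12 call without either Id3KO γδ library, WT γδ library b or either L-DKO DP library (up to 0.0842). In L-DKO iNKT only Tcf4 changed, from 10.8 FPKM in WT iNKT to 1.21 and 1.75 (-2.26 ± 0.38, limma adjusted p = 0.0157), and the same call did not hold when L-DKO iNKT library a was left out (limma adjusted p = 0.0531). Of the same genes, 0 of 3 passed in L-DKO DP, where only 0.178% of all genes were called. Among WT lineages Tcf12 was lower than in DP cells by 1.83 in iNKT cells (log2 difference -1.83 ± 0.25, limma adjusted p = 0.00191) and by 1.02 in γδ cells (-1.02 ± 0.20, limma adjusted p = 0.0117), the latter lost without WT γδ library a or WT DP library b (limma adjusted p up to 0.0777).

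Genes of routes known to induce Id genes (T cell receptor signals through Egr factors, and TGF-β or BMP signals through Smad factors) were read next, 11 of 12 being measured. In Id3KO γδ, where 15.1% of all genes were called, 2 rose and 2 fell, and the list's median log2 change was -0.32 against -0.08 for all genes. Egr2 rose from 10.6 and 6.19 FPKM to 22.1 and 26.4 (1.46 ± 0.27, limma adjusted p = 0.0127), and Egr3 rose by 1.81 ± 0.43 (limma adjusted p = 0.0288). Both encode zinc finger factors induced by T cell receptor signals. Smad3, a signal carrier of TGF-β, fell by 1.34 (limma adjusted p = 0.0165), and the receptor gene Tgfbr1 fell by 0.96 (limma adjusted p = 0.0174). The Egr2 and Tgfbr1 calls were lost without Id3KO γδ library b (limma adjusted p = 0.0597 and 0.0799), the Smad3 call also without WT γδ library a (up to 0.0922), and the Egr3 call without any single γδ library (up to 0.113). In L-DKO iNKT, with 6.07% of all genes called, 2 rose and 0 fell. Egr2 went from 8.32 FPKM to 50.9 and 69.7 (2.70 ± 0.33, limma adjusted p = 0.00459), and Egr1 from 24.1 to 88.4 and 96.8 (1.90 ± 0.20, limma adjusted p = 0.00311). In L-DKO DP, 0 of 11 passed, with only 0.178% of all genes called. Egr2 was thus higher in Id3KO γδ and in L-DKO iNKT, and in the latter Id2 is deleted by Cre. Whether any of these routes acted on Id2 was not tested.

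Effector genes shared by lymphocytes rich in Id2 were sparse in the table, with 6 of 15 measured. All 6 were higher in WT iNKT than in WT DP, with a median log2 difference of 7.53 against 0.11 for all genes, and 6 of 6 were higher in WT γδ than in WT DP, while 25% and 20.6% of all genes were called in these comparisons. Klrd1, which encodes the NK receptor subunit CD94, was listed at 0 in all 4 DP libraries and stood at 212.5 FPKM in WT iNKT. Il7r, the α chain of the IL-7 receptor, went from 0.624 and 0.506 FPKM in WT DP to 319.2 in WT iNKT. In Id3KO γδ, 3 of 6 rose and 0 fell, against 15.1% of all genes called. Klrd1 went from 3.70 and 9.35 FPKM to 48.0 and 35.2 (2.59 ± 0.63, limma adjusted p = 0.0311), the chemokine receptor gene Cxcr6 from 14.99 and 30.7 to 60.9 and 76.5 (1.62 ± 0.32, limma adjusted p = 0.0154), and Il7r from 40.2 and 49.6 to 88.6 and 98.2 (1.05 ± 0.28, limma adjusted p = 0.0436). The Klrd1 and Cxcr6 calls were both lost without WT γδ library a or Id3KO γδ library b (limma adjusted p up to 0.173), and Klrd1 also without Id3KO γδ library a or either L-DKO DP library. The Il7r call was lost without any single γδ or DP library (up to 0.191). In L-DKO iNKT, 6 of 6 fell, against 6.07% of all genes called, with a median of -4.79 beside -0.07 for all genes. Among them were Klrd1, at 15 and 2.75 FPKM (-4.79 ± 0.77, limma adjusted p = 0.0131), Cxcr6, at 5.24 and 7.33 against 199.3 (-4.80 ± 0.39, limma adjusted p = 0.00125), and Il7r, at 22.3 and 11.5 (-4.23 ± 0.34, limma adjusted p = 0.00125). In L-DKO DP, 0 of 6 passed, with only 0.178% of all genes called. In iNKT and in γδ cells the members that passed went in the direction of Id2, and a link to it was not tested. In γδ cells the list as a whole was mixed, with a median of 0.565 against -0.08 for all genes. S100a4 (-1.58, limma adjusted p = 0.0895) and Runx3 (-0.88, limma adjusted p = 0.169) were lower in Id3KO γδ without passing. Il2rb hardly changed there (0.08, limma adjusted p = 0.928). The γδ markers also fell, from 736 FPKM in WT iNKT to 13.3 and 44.7 in L-DKO iNKT, where library a listed Tcrg-C1 and Tcrg-V1 at 0. The myeloid and dendritic markers (7 of 10 measured, none at 0) went from 111.5 FPKM in WT iNKT to 23.7 and 35.6, with 4 called lower and 1 higher. Their part in the result was not tested.

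Of genes that E proteins are known to activate in thymocytes, 9 of 10 were measured. In Id3KO γδ 5 fell and 0 rose (15.1% of all genes were called), with a median of -1.73 against -0.08 for all genes. Rag1, which encodes a subunit of the recombinase, went from 84.9 and 111.8 FPKM to 29.3 and 6.36 (-2.72 ± 0.54, limma adjusted p = 0.0167). Rag2, for the other subunit, fell by 1.72 (limma adjusted p = 0.0435) and Ptcra, for the pre-TCR α chain, by 1.06 (limma adjusted p = 0.0184). Each of these 3 calls was lost without either WT γδ library (limma adjusted p up to 0.161), that of Ptcra also without Id3KO γδ library a, and that of Rag2 also without Id3KO γδ library b or any single DP or L-DKO iNKT library. Rag1, Rag2 and Ptcra are also 3 of the 8 DP markers, so the fall of that list is not separate from theirs. In L-DKO iNKT 2 rose and 1 fell (6.07% of all genes were called). Gfi1, a repressor gene, went from 7.27 FPKM to 33.4 and 42.1 (2.22 ± 0.26, limma adjusted p = 0.00412), and the chemokine receptor gene Cxcr4 from 30.5 to 106.8 and 110.4 (1.80 ± 0.32, limma adjusted p = 0.0196, not held on leaving out L-DKO iNKT library a, at 0.0552). Rag1 fell from 47.8 to 4.01 and 3.73 (-3.33 ± 0.67, limma adjusted p = 0.0286), a call lost without any single DP, WT γδ or L-DKO iNKT library (up to 0.0797). In L-DKO DP, where only 0.178% of all genes were called, 0 of 9 passed. The median there was 0.16 against 0.04 for all genes. Ptcra went from 10.8 and 10.7 FPKM in WT DP to 31.8 and 26.2 in L-DKO DP without passing (1.34 ± 0.22, limma adjusted p = 0.0833).

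Of the 7 genes known to be restrained by Id proteins, all measured, 5 rose and 0 fell in L-DKO iNKT, where 6.07% of all genes were called, with a median of 1.58 beside -0.07 for all genes. The paper already reports Sox4 and Tcf7 as upregulated in L-DKO iNKT from the same data, so their rise is not separate support for the list. Sox4, for an HMG-box factor, went from 4.05 FPKM to 37.9 and 24.8 (2.65 ± 0.33, limma adjusted p = 0.00538). Bcl6, for a transcriptional repressor that follicular helper T cells need, went from 6.19 to 27.5 and 15.2 (1.58 ± 0.33, limma adjusted p = 0.0321). The Bcl6 call did not hold on leaving out L-DKO iNKT library a or any single DP or WT γδ library (limma adjusted p up to 0.0704). In Id3KO γδ 2 rose and 4 fell, against 15.1% of all genes called. Zbtb16, which encodes PLZF, the factor of innate-like T cells, went from 24.0 and 9.69 FPKM to 170.9 and 135.3 (3.23 ± 0.36, limma adjusted p = 0.00218), and Cxcr5, a chemokine receptor gene of follicular cells, rose by 2.19 (limma adjusted p = 0.0127). Sox4 fell there from 89.8 and 56.1 FPKM to 15.3 and 17.4 (-2.05 ± 0.27, limma adjusted p = 0.00422), and Bcl6 fell by 1.52 (limma adjusted p = 0.0114). The Cxcr5 and Bcl6 calls were lost without WT γδ library a or Id3KO γδ library b (limma adjusted p up to 0.0731). Sox4 and Bcl6 therefore went in opposite directions in the mutants, down in Id3KO γδ and up in L-DKO iNKT. Tcf7 did the same, with log2 changes of -1.29 in Id3KO γδ (limma adjusted p = 0.00264) and 1.14 in L-DKO iNKT. Cxcr5 did not, since it rose in both, by 3.01 in L-DKO iNKT. Zbtb16, higher in Id3KO γδ, changed by -0.54 in L-DKO iNKT. Lef1 rose by 2.40 in L-DKO iNKT and changed by -0.03 in Id3KO γδ. Foxo1 changed by -0.31 in L-DKO iNKT and by -1.27 in Id3KO γδ. The list was thus mixed. These mutants differ in cell type and in the genes deleted, and a link to Id2 was not tested. Tcf7, Lef1, Foxo1, and Cxcr5 in L-DKO iNKT, were not recomputed under the alternatives. In L-DKO DP, 0 of 7 passed, with only 0.178% of all genes called. With only the iNKT libraries fitted, every L-DKO iNKT call that was recomputed for a gene named here from these lists was lost. With only the γδ libraries fitted, the Id3KO γδ calls of Tcf3, Tcf12, Egr2, Smad3, Tgfbr1, Il7r, Cxcr6, Rag1, Ptcra and Rag2 were lost (limma adjusted p 0.061 to 0.151). A pseudocount of 0.1 lost those of Tcf3, Egr3, Klrd1, Il7r and Rag2 (limma adjusted p 0.054 to 0.0832). Quantile normalization lost those of Tcf3, Il7r and Rag2 (limma adjusted p 0.0503 to 0.0599), and scaling to the same total lost that of Ptcra.

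Genes that lie near the deleted loci were also read. Within 1 Mb of Id2, 6 genes were measured and 0 passed in each of the 3 genotype comparisons. Within 1 Mb of Id3, 23 genes were measured. In L-DKO DP 0 passed, where only 0.178% of all genes were called. In L-DKO iNKT 1 rose and 2 fell (13.04%, against 6.07% of all genes), and in Id3KO γδ 2 rose and 4 fell (26.1%, against 15.1%). The nearest was E2f2, a cell cycle regulator of the E2F family, whose gene at chr4:136172274-136196057 begins 26.9 kb past the end of Id3. It was 67.9 and 60.1 FPKM in WT DP, 126.5 and 119.3 in L-DKO DP, 8.98 in WT iNKT, 38.05 and 41.3 in L-DKO iNKT, 29.8 and 21.5 in WT γδ, and 14.5 and 6.85 in Id3KO γδ. Both L-DKO populations were thus above their WT counterparts and Id3KO γδ was below. E2f2 rose by 2.03 ± 0.38 in L-DKO iNKT (limma adjusted p = 0.0229) and fell by 1.25 in Id3KO γδ (-1.25 ± 0.31, limma adjusted p = 0.0344), while its difference of 0.93 in L-DKO DP did not pass (limma adjusted p = 0.339). The iNKT and γδ effects on E2f2 differed by 3.28 ± 0.49 (limma adjusted p = 0.0119). The rise was lost without either L-DKO iNKT or either L-DKO DP library (limma adjusted p up to 0.0618), and the fall without any single DP or γδ library except Id3KO γδ library a (up to 0.173).

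**Figure D4:**
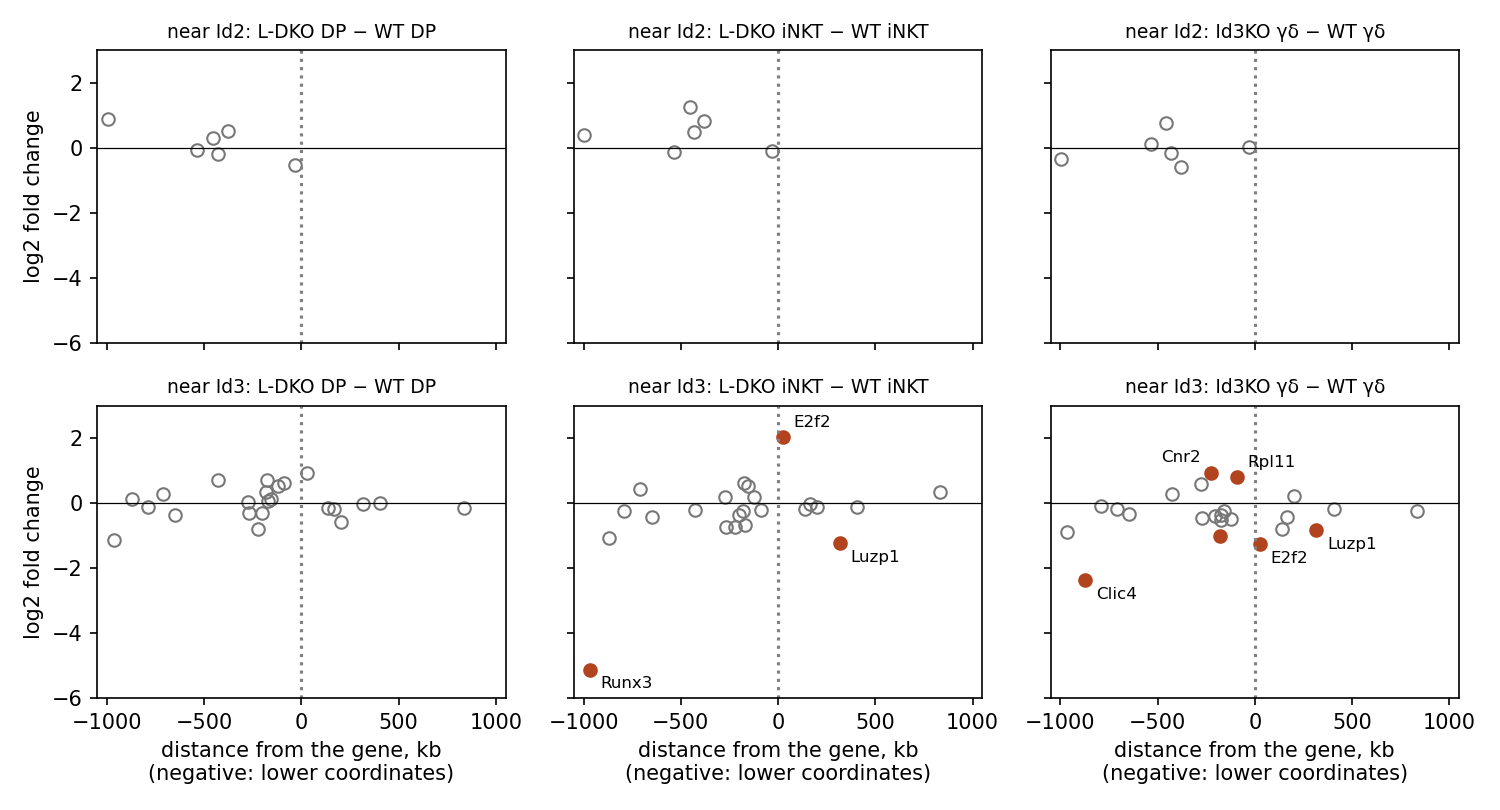
Log2 fold change of every measured gene within 1 Mb of Id2 (upper row) and Id3 (lower row) in the 3 genotype comparisons, against the distance between the genes in kb, negative toward lower coordinates. Filled points passed an adjusted p of 0.05 over all genes, and most are named. None did near Id2, and near Id3 E2f2, 26.9 kb away, was up by 2.03 in L-DKO iNKT and down by 1.25 in Id3KO γδ.

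Other genes near Id3 that passed were farther off. In Id3KO γδ, Clic4, for a chloride intracellular channel protein and 871 kb away, fell by 2.36 (limma adjusted p = 0.0036), from 16.98 and 17.1 FPKM to 3.62 and 1.67, and held in all alternatives. Cnr2, for a cannabinoid receptor and 224 kb away, rose by 0.93 (limma adjusted p = 0.0443), a call lost without any single γδ or DP library (limma adjusted p up to 0.173). In L-DKO iNKT, Runx3, 966 kb away and one of the 6 effector genes above, fell by 5.12 (limma adjusted p = 0.002), from 71.4 FPKM to 1.79 and 0.551. Luzp1, 317 kb away, fell by 1.22 (limma adjusted p = 0.0415), which did not hold on leaving out L-DKO iNKT library b or any single DP or WT γδ library (limma adjusted p up to 0.0818). The Luzp1 call was also lost with a pseudocount of 0.1, quantile normalization or a prior with a trend. With libraries scaled to the same total its difference was -0.41, not called. In a window of 10 Mb, 57 genes near Id2 were called in 3.51%, 8.77% and 15.8% of cases in the comparisons of DP, iNKT and γδ cells. In DP cells these were only 2 genes, both higher. The 191 genes near Id3 were called in 0%, 6.81% and 12.6% of cases. Of all genes, 0.178%, 6.07% and 15.1% were called. With only the iNKT libraries fitted, the iNKT calls of E2f2, Runx3 and Luzp1 were lost (limma adjusted p 0.132 to 0.337). With only the γδ libraries fitted, those of E2f2 and Cnr2 in Id3KO γδ were lost (limma adjusted p 0.133 and 0.118). Scaling libraries to the same total also lost both (limma adjusted p 0.0673 and 0.0941).

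Genes whose pattern was most like that of each member were found by Pearson's correlation of log2(FPKM + 1), among 7280 genes with a group mean of at least 10 FPKM. This is a description over libraries that share groups, and it says nothing of shared function or control. For Id2, over the 7 libraries in which the gene is intact, they were Pydc3 and Ly6c1 (r = 0.995 each), Rassf5 (0.993), and Phactr2 and Ifi27l2a (0.992 each). Ly6c1, for a surface protein of memory and effector lymphocytes, averaged 1.09 FPKM in WT DP, 11.8 in WT γδ and 63.9 in Id3KO γδ, and stood at 191.5 in WT iNKT. For Id3, over all 11 libraries, they were Chst10 (r = 0.901), Stat3 (0.896), Mkl1 (0.843), Vasn (0.840) and Ppox (0.834). Unlike the set for Id2, these libraries include the mutants that delete the gene itself, so the Id3 pattern also follows its deletion. These 5 genes spanned only 1.16 to 1.61 on the log2 scale, against 5.28 for Id3. Id2 and Id3 themselves had r = -0.349 over those 7 libraries and 0.079 over all 11. Both sets hold libraries of mice with Id3 deleted.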

How the data were processed

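RNA from sorted thymocytes was sequenced by the authors after RNase H depletion of ribosomal RNA, with stranded, randomly primed, paired-end libraries. Trimmomatic 0.32, TopHat2 2.0.9, Cufflinks 2.2.0 and mm10 (GRCm38) appear in the submitters' processing notes; which annotation and strand setting were used is not stated. The deposited values are log2 FPKM, read as log2(FPKM + 1), and hold 11815 genes. The labels give 12 samples and 11 have a column, since the authors discarded a low-quality WT iNKT library. The deposited ratio columns and group means of the authors were not used.

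The test was limma 3.58.1 (R 4.3.3) on log2(FPKM + 1), fitting 6 group means and 1 shared spread per gene (5 residual and 2.87 prior degrees of freedom), in both directions, with Benjamini-Hochberg adjustment over all genes and a threshold of 0.05. Fold changes on this scale understate those of low genes. The fit was tested on simulated data. Libraries are separate pools of mice, and p-values measure the spread between them. Depth is unknown, so no detection limit is given. Values of a single gene at 2 against 2 libraries cannot pass an exact permutation test (smallest p 0.3333).

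Named genes were Id2, Id3, their family and E proteins, called genes within 1 Mb (up to 4 for each locus and comparison), the 5 most alike in pattern, and up to 4 called members of each list. Some other members of the lists are named beside them. The members and lists were chosen with earlier results of these data known, and lists are described by counts and medians without a test. Of the genes the rule takes, some are not reported here. Gene positions come from RefSeq (GRCm38.p6), where 10377 symbols were found directly, 628 under an older name and 810 not at all. Alternatives were another pseudocount, filters, scalings, priors, only the groups compared, and leaving out each library. The summed markers of erythroid cells were 3.47 to 117 FPKM.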

Additional observations from a re-analysis of the deposited data

Results flagged for a closer look

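The effect of the mutant genotype on Id2 and Id3 differed between cell types by a test of the difference itself. For Id2 the γδ effect exceeded the DP effect by 3.35 on the log2 scale, the iNKT and DP effects differed by -7.46, and the iNKT and γδ effects by -10.81. For Id3 the iNKT effect exceeded the γδ effect by 4.13. The γδ genotype deletes Id3 alone and the other deletes both genes, so cell type and genotype cannot be told apart in the comparisons with γδ cells, and for Id2 these set a deleted gene against an intact one. Id2 was near 0 in both L-DKO populations, so the iNKT and DP difference mirrors that of 7.33 between WT iNKT and WT DP. Beside Id3, E2f2 also had different effects in iNKT and γδ cells, by 3.28.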

How the results depend on the processing

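For Id2 and Id3, 442 values were recomputed under the alternatives. Of these, 411 kept their side of the threshold, 28 lost a call, 3 gained one, and 0 called values reversed. With a pseudocount of 0.1 the Id2 rise in Id3KO γδ was 1.86 (limma adjusted p = 0.101). With libraries scaled to the same total, the Id3 difference of WT γδ from WT DP was 0.86, no longer called, and the difference between iNKT and DP effects on Id3 was 3.73, now called. This scaling moved the median of all genes by -0.84 to 0.87 in the lineage and genotype comparisons, and the Id3 difference of L-DKO iNKT from WT iNKT, never called, changed sign. So did, on leaving out a library, the uncalled Id3 differences of WT iNKT from WT DP (up to 0.20) and of Id3KO γδ from L-DKO DP (up to 0.13). With only the groups compared in the fit, 5 calls were lost: Id3 in L-DKO DP (-3.07), Id2 in L-DKO iNKT (-8.98), Id2 in Id3KO γδ (1.83), Id3 of L-DKO iNKT over Id3KO γδ (2.61) and of WT iNKT over Id3KO γδ (3.27), with limma adjusted p of 0.0554 to 0.248. The Id3 difference of WT iNKT from WT γδ (-1.52) was then called.

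Leaving out 1 library at a time gave these lowest and highest values where a call changed. For Id2 they were 1.14 and 2.51 in Id3KO γδ against WT γδ, 1.81 and 3.18 in WT iNKT against Id3KO γδ, 3.96 and 4.70 in WT iNKT against WT γδ, 2.67 and 4.04 for γδ against DP effects, and -7.59 and -7.33 for iNKT against DP effects. For Id3 they were -3.48 and -2.67 in L-DKO DP against WT DP, 1.10 and 1.79 in WT γδ against WT DP, and 3.13 and 3.41 in WT iNKT against Id3KO γδ. Leaving out the 1 WT iNKT library gives no value for its comparisons. Of 39 gene and comparison pairs recomputed beside those of Id2 and Id3, 32 lost a call under at least 1 alternative and 0 changed direction. No paired analysis was possible because the columns of a group share 1 name and carry no replicate number. Depth, unknown here, limits what can be said of Id2 in L-DKO cells, where it was at or near 0. Counts of called genes moved more than the members did: 717 in L-DKO iNKT against WT iNKT ran from 2 (only those libraries) to 3627 (same total), 1789 in Id3KO γδ from 555 to 1921, 21 in L-DKO DP from 3 to 33, 2951 in WT iNKT against WT DP from 1647 to 4778, 2438 in WT γδ against WT DP from 1131 to 3156, and 328 in WT iNKT against WT γδ from 70 to 976. For differences between effects they ran from 2 to 3833 (204, iNKT and DP), 51 to 562 (298, γδ and DP) and 203 to 1249 (780, iNKT and γδ). Across lineages they ran from 1258 to 3072 (2867, L-DKO iNKT and L-DKO DP), 46 to 939 (470, L-DKO iNKT and Id3KO γδ), 27 to 322 (122, WT iNKT and Id3KO γδ) and 2249 to 4252 (4187, Id3KO γδ and L-DKO DP).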
